A study of Saccharomyces cerevisiae with 4 samples.

Results

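The 37 genes described here encode the enzymes that make ergosterol in budding yeast (Saccharomyces cerevisiae) and the proteins that regulate, store and move sterols. They were taken from a fixed list of names and matched by gene symbol to the probes of both array platforms. All 37 were printed on both, out of 5583 named genes in all. They fall into 9 genes of the mevalonate steps, 16 genes of the later ergosterol steps, and 12 genes of sterol regulators, esterases and transfer proteins.

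The study compared RNA precipitated through zz-tagged Mex67 with RNA precipitated through the zz tag by itself, on 4 two-channel arrays that form 1 group. Mex67 is the receptor that takes messenger RNA out through the nuclear pore, and zz is a tag that immunoglobulin binds, taken from protein A. The tag-only precipitate is the control that every array carries. The sources used here do not give the strain, the growth medium or the way the tagged proteins were made, nor whether the arrays came from separate cultures, so the spread between arrays may be technical.

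Ergosterol is the main sterol of fungal membranes and takes the place that cholesterol has in animal cells. The mevalonate steps turn acetyl-CoA into farnesyl pyrophosphate, which also feeds dolichol, ubiquinone and protein prenylation. The later steps begin with squalene, pass through lanosterol and end with ergosterol, mostly on the endoplasmic reticulum, and surplus sterol is stored as steryl esters in lipid droplets.

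All values below are log2 ratios of the 2 channels minus the array's median over genes, so 1 is a 2-fold higher ratio than that of the median gene. Higher ratios probably stand for an excess in the zzMex67 precipitate, since each title begins with it and the labels of replicates 1, 3 and 4 assign it to channel 1. This reading rests on labels alone, and the text says only higher or lower. Replicate 2 has the channels the other way round (zzMex67 in channel 2), and its sign was turned unless stated otherwise. The turn rests on the channel labels, since the title of replicate 2 has the same order as the others. With the sign turned, 49.1%, 50.5% and 45.4% of genes shared their sign between replicate 2 and replicates 1, 3 and 4. Pearson's r over these genes was -0.029, 0.012 and -0.114, in the same order. Replicate 1 was measured on one platform and replicates 2, 3 and 4 on another, and values set side by side across the platforms were centred separately. The ratios come from whole precipitates, so fewer cells with an mRNA and less of it per cell cannot be told apart.

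The arrays measured the sterol genes unevenly. Values were present for 32 of the 37 genes on replicate 1 (86.5%, against 79.0% of all named genes), for 4 on replicate 2 (10.8%, against 9.46%), for 9 on replicate 3 (24.3%, against 41.2%) and for 20 on replicate 4 (54.1%, against 43.7%). No sterol gene had a value on all 4 arrays, 7 had values on 3, 16 on 2 and 12 on 1. ERG24, the gene of the sterol C-14 reductase, and YEH2, a steryl ester hydrolase gene, had none. The files hold no intensities, so the depth behind a ratio is unknown, and the number of arrays limits the precision.

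Several synthesis genes lay 2-fold or more above the median on replicate 1. Of these, ERG12, ERG26 and ERG6 had no value on another array, and only ERG3 was 2-fold or more above the median again. On that array 11 of the 22 measured genes of the mevalonate and later steps lay 2-fold or more above the median and 0 lay 2-fold or more below it, where 26% of all genes lay that far above and 21.1% that far below. Of the 10 sterol handling genes measured there, 1 lay 2-fold or more above and 2 lay 2-fold or more below. On replicate 4 the synthesis genes had 2 of 12 at 2-fold or more above and 3 at 2-fold or more below, against 22.5% and 17.4% of all genes, and the 8 handling genes had 0 and 3. Replicate 3 had 4 of 9 sterol genes that far above (CYB5, ECM22, ERG25 and ERG3) and 1 below (ERG2), against 28.9% and 21.9%. Replicate 2 had 1 of 4 above (ERG11) and 0 below, against 27.7% and 29.2%. These counts describe single arrays and carry no test.

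**Figure D1:**
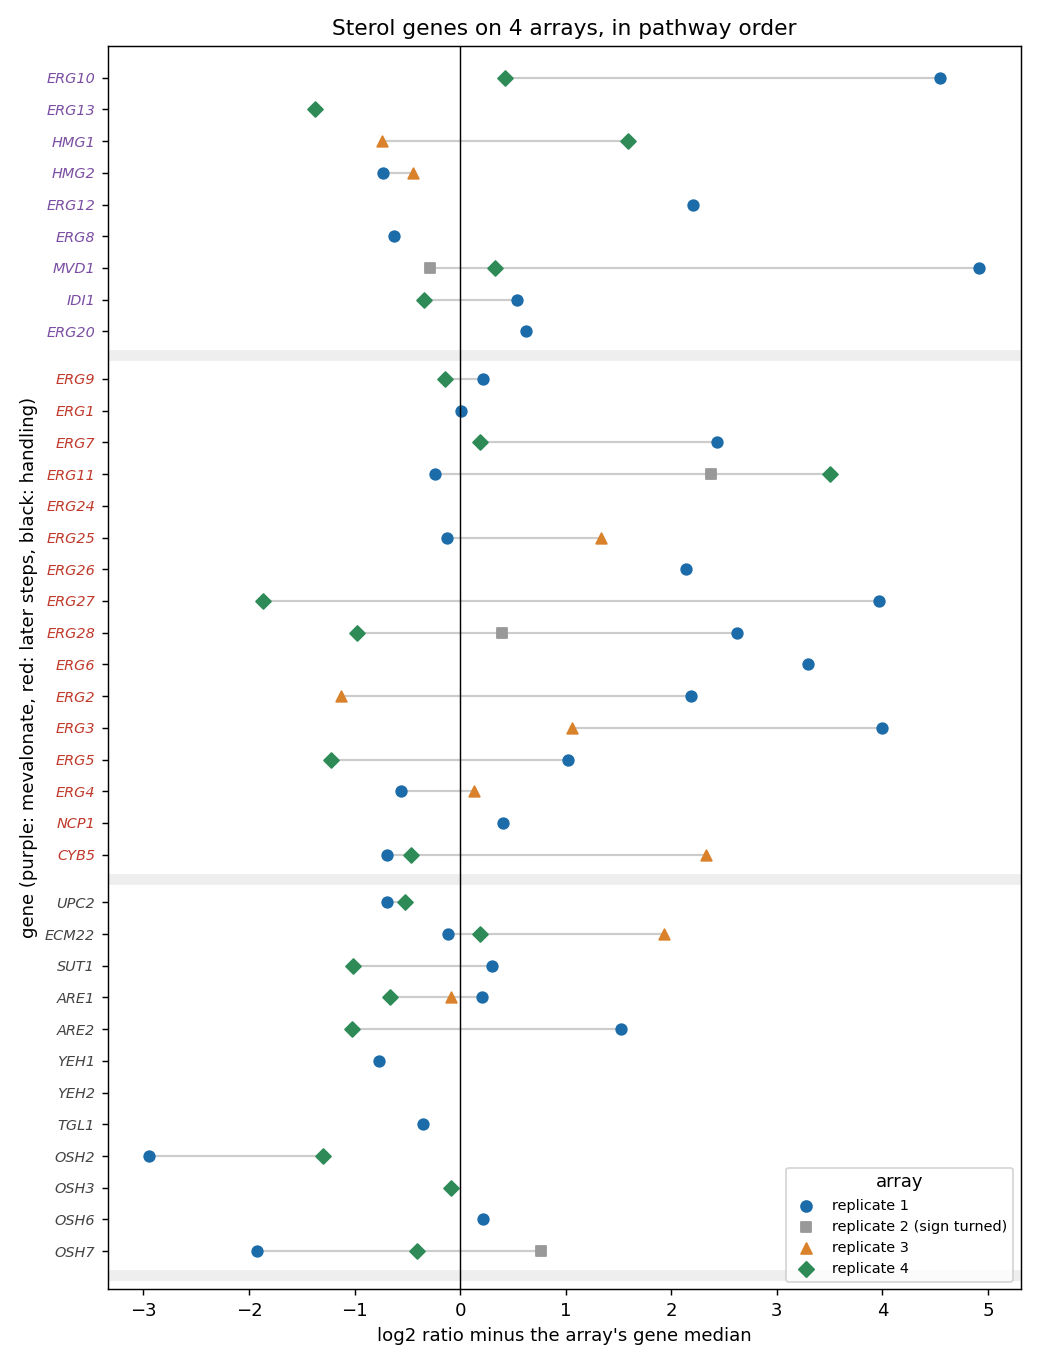
Each row is a sterol gene in pathway order, and each point its log2 ratio minus the array's gene median on 1 array (circle, replicate 1; square, replicate 2 with the sign turned; triangle, replicate 3; diamond, replicate 4), with a grey line joining the lowest and highest array. Replicate 1 reaches 4.92 for MVD1 and -2.95 for OSH2, most genes with 2 or more values have points on both sides of 0, and ERG24 and YEH2 have no point.

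Among the mevalonate genes, MVD1 and ERG10 had the highest ratios of all sterol genes on replicate 1. MVD1 (YNR043W), which encodes mevalonate pyrophosphate decarboxylase, had 4.92 on replicate 1, -0.28 on replicate 2 and 0.33 on replicate 4. The first of these exceeds the ratios of 99.7% of the genes on its array, while the other arrays placed MVD1 above 42.9% and 61.8% of genes. Over replicates 2 and 4 its mean was 0.025 ± 0.44 (SD, n = 2).

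ERG10 (YPL028W) encodes the acetoacetyl-CoA thiolase that opens the pathway. Its ratio was 4.54 on replicate 1 and 0.42 on replicate 4, above the median on both but 23.3-fold on the one and 1.34-fold on the other. Both high values of replicate 1 rest on 1 spot each. They were also well above the median of the run of 400 neighbouring spots that holds them, by 4.53 for MVD1 and 4.43 for ERG10. A run here is a block of 400 consecutive probe numbers, and neighbouring means near in that numbering. Whether the numbering follows position on the slide was not tested.

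HMG1 and HMG2 encode the paired HMG-CoA reductases, the enzymes that set the pace of the pathway and are the targets of statins. HMG1 (YML075C) had -0.74 on replicate 3 and 1.59 on replicate 4, with a mean of 0.43 ± 1.65 (SD, n = 2), so its sign was not shared by the arrays. HMG2 (YLR450W) had -0.73 on replicate 1 and -0.44 on replicate 3, below the median on both. On replicate 3, the only array with a value for each, both reductase genes were lower than the median gene.

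The remaining mevalonate genes had 1 or 2 values. ERG13, the gene of HMG-CoA synthase, had -1.37 on replicate 4. The mevalonate kinase gene ERG12 had 2.21 and the phosphomevalonate kinase gene ERG8 -0.62 on replicate 1, although the products of these genes act one after the other. IDI1, the isopentenyl diphosphate isomerase gene, had 0.54 on replicate 1 and -0.34 on replicate 4. ERG20, whose product makes farnesyl pyrophosphate, had 0.62 on replicate 1, the median of the 7 mevalonate genes measured there (range -0.73 to 4.92).

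The later ergosterol steps had the higher median on replicate 1 and held ERG11, which had the highest mean on the second platform among the 8 sterol genes with at least 2 values there. ERG11 (YHR007C) encodes lanosterol demethylase, the target of azole antifungals. It had -0.23 on replicate 1, 2.38 on replicate 2 and 3.51 on replicate 4. The last 2 values exceed those of 93.3% and 98.9% of genes on their arrays, while on replicate 1 the gene stood close to the median.

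The mean of ERG11 over replicates 2 and 4 was 2.94 ± 0.80 (SD, n = 2), or with limma's standard error of 1.27 an adjusted p of 0.806. As deposited, without turning the sign, the value on replicate 2 is -2.38 and the mean 0.56. The value on replicate 4 comes from 2 spots at 3.50 and 3.52, and that on replicate 2 from 1 spot. The run of spots around it had a median of 0.99 on replicate 2 and 0.44 on replicate 4, which leaves 1.39 and 3.07 above the neighbouring spots.

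The first enzymes of this section of the pathway stood near the median. ERG9, the squalene synthase gene, had 0.22 on replicate 1 and -0.14 on replicate 4, where its spots were at 0.15 and -0.44. ERG1, the squalene epoxidase gene, had 0.0060 on replicate 1. ERG7, which encodes lanosterol synthase, was higher, with 2.43 on replicate 1 and 0.19 on replicate 4. Its 2 spots on replicate 4 were at 0.57 and -0.19, so the value there has no settled sign. NCP1, the gene of the reductase that passes electrons to the Erg11 protein, had 0.41 on replicate 1.

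The genes of the C-4 demethylation complex had different ratios on the same array. ERG25, the methyl oxidase gene, had -0.13 on replicate 1 and 1.33 on replicate 3. ERG26, the C-3 dehydrogenase gene, had 2.14 on replicate 1. ERG27 (YLR100W), the 3-keto reductase gene, had 3.97 on replicate 1 and -1.87 on replicate 4. These are the highest of the 4 complex genes on one array and the lowest of all sterol genes on the other, 5.84 apart.

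ERG28 (YER044C), whose product holds the complex together, had 2.62 on replicate 1, 0.39 on replicate 2 and -0.98 on replicate 4. Its mean over the second platform was -0.29 ± 0.97 (SD, n = 2). The run of spots around ERG28 on replicate 1 had a median of 1.18, which leaves 1.45 of its ratio above the neighbouring spots. On replicate 2 the run had a median of 0.99, and the value of ERG28 minus that was -0.60.

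ERG3 was the only sterol gene at 2-fold or more above the median on every array that measured it, among the 23 genes with at least 2 values. This gene (YLR056W), which encodes the C-5 desaturase, had 4.0 on replicate 1 and 1.06 on replicate 3. Of all genes with at least 2 values, 5.35% met this criterion in the higher direction and 3.68% in the lower one, so 1 of 23 in each direction is near the background.

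Of the other late genes, ERG6, the C-24 methyltransferase gene, had 3.30 on replicate 1. ERG2, the C-8 isomerase gene, had 2.19 on replicate 1 and -1.13 on replicate 3. ERG5, the C-22 desaturase gene, had 1.02 on replicate 1 and -1.22 on replicate 4. The final reductase gene ERG4 had -0.56 on replicate 1 and 0.13 on replicate 3, where its spots were at -0.32 and 0.59. ERG2 and ERG5 thus lay more than 2-fold from the median on both arrays, in opposite directions.

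CYB5 (YNL111C), the cytochrome b5 gene whose product donates electrons to several of these oxidations, had -0.69 on replicate 1, 2.33 on replicate 3 and -0.47 on replicate 4. Replicate 3 stands apart from the other arrays. The run of 400 spots that holds CYB5 there had a median of 2.21, so that the gene lay only 0.12 above its neighbours. Centred on its runs, its mean over replicates 3 and 4 was -0.49 in place of 0.93 ± 1.98 (SD, n = 2).

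The plot of each gene against its run of neighbouring spots shows where such shifts of a whole run touch the sterol genes. Run medians around them lay between -1.24 and 2.21.

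**Figure D2:**
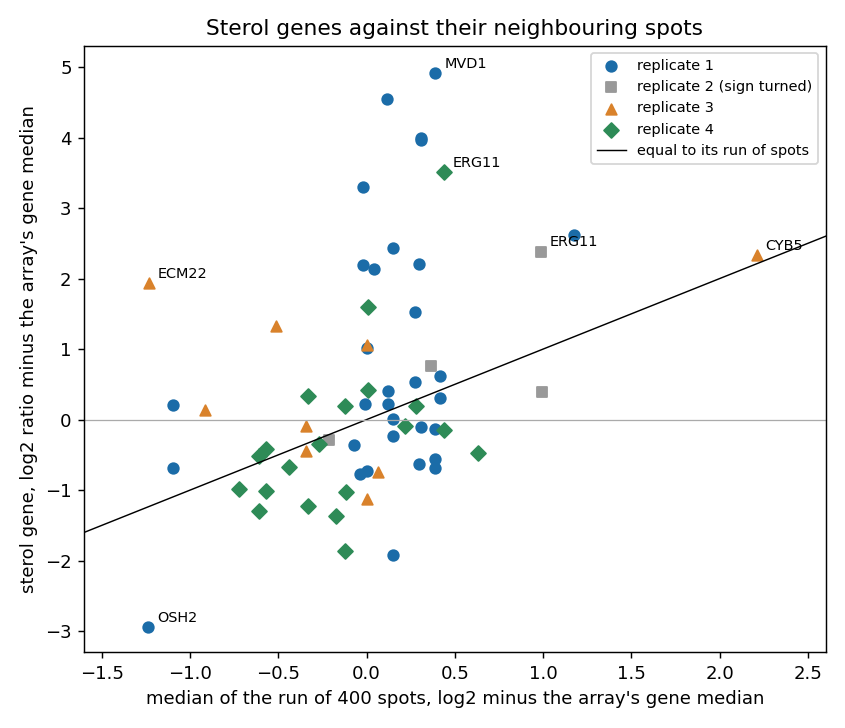
Each point is a sterol gene on 1 array. The x axis is the median of its run of 400 spots with consecutive probe numbers, and the y axis is its own value. Both are log2 ratios minus the array's gene median, and the line marks equality. CYB5 on replicate 3 lies at the line (2.33 against 2.21), while ECM22 on replicate 3 (1.94 against -1.23) and MVD1 on replicate 1 (4.92 against 0.39) lie far above it.

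The regulators, esterases and transfer proteins had medians below that of all genes on both arrays that measured at least 8 of them. The median was -0.23 (10 genes, range -2.95 to 1.53) on replicate 1 and -0.59 (8 genes, range -1.30 to 0.19) on replicate 4. On replicate 4, 7 of the 8 lay below the median gene, and 3 of them by 2-fold or more. With runs of 400 spots centred, 5 of the 8 lay below it and 0 by 2-fold or more, and the group median was -0.27. Replicates 2 and 3 measured 1 and 2 genes of this group.

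The transcription factor genes UPC2 and ECM22, whose zinc-cluster products switch on ERG genes when sterol runs low, both stood within 2-fold of the median on replicates 1 and 4. UPC2 (YDR213W) had -0.69 on replicate 1 and -0.52 on replicate 4. The runs around it had medians of -1.10 and -0.61, and minus those it had 0.41 and 0.088, the opposite sign on both arrays. Its spots on replicate 4 were at -0.013 and -1.03. ECM22 (YLR228C) had -0.11 on replicate 1, 1.94 on replicate 3 and 0.19 on replicate 4. The value of ECM22 on replicate 3 came from spots at 2.01 and 1.86 in a run with a median of -1.23.

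ECM22 had a mean of 1.06 ± 1.24 (SD, n = 2) over replicates 3 and 4. SUT1, which encodes a regulator of sterol uptake, had 0.30 on replicate 1 and -1.02 on replicate 4.

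Steryl esters are made by the paired acyltransferases Are1 and Are2. ARE1 (YCR048W) had 0.21 on replicate 1, -0.091 on replicate 3 and -0.67 on replicate 4, the narrowest span among the genes on 3 arrays. Minus the medians of its runs it had 1.30, 0.25 and -0.23, and the span was then no longer the narrowest. Its spots on replicate 3 were at 0.030 and -0.21, so the value there has no settled sign. The mean of ARE1 over the second platform was -0.38 ± 0.41 (SD, n = 2). ARE2 (YNR019W), which accounts for most esterification in cells with oxygen, had 1.53 on replicate 1 and -1.02 on replicate 4.

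Both acyltransferase genes were thus above the median on replicate 1 and below it on replicate 4. Of the hydrolases that release sterol from its esters, YEH1 had -0.77 and TGL1 -0.36 on replicate 1 only. The 2 spots of TGL1 differed in sign, at 0.34 and -1.05.

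OSH2 was the sterol gene with the lowest ratio on replicate 1, and lay 2-fold or more below the median on both arrays that measured it. OSH2 (YDL019C), an oxysterol-binding protein homologue at contacts between the endoplasmic reticulum and the plasma membrane, had -2.95 on replicate 1 and -1.30 on replicate 4. Its 2 spots on replicate 4 were at -1.18 and -1.42. The runs that hold it had medians of -1.24 and -0.61, and its values minus those medians were -1.71 and -0.69.

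OSH7 (YHR001W), which with OSH6 encodes a pair of phosphatidylserine carriers, had -1.92 on replicate 1, 0.76 on replicate 2 and -0.41 on replicate 4. The run around it on replicate 4 had a median of -0.57, and minus that OSH7 had 0.16. Its 2 spots on replicate 2 were at 2.01 and -0.48. Those of MVD1 (0.075 and -0.64) and ERG28 (1.07 and -0.28) on that array also differed in sign, so none of these 3 values on replicate 2 has a settled sign. OSH6 had 0.22 on replicate 1, and OSH3 -0.089 on replicate 4. Whether the probes tell apart such related genes (HMG1 and HMG2, ARE1 and ARE2, UPC2 and ECM22, OSH6 and OSH7) is not stated in the labels or files.

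The order of the 3 groups was not the same on the arrays. On replicate 1 the median was 1.02 for the later steps (15 genes, SD over genes 1.66), 0.62 for the mevalonate steps (7 genes, SD 2.33) and -0.23 for the handling genes (SD 1.25). On replicate 4 it was 0.33 for the mevalonate steps (5 genes, SD 1.09), -0.47 for the later steps (7 genes, SD 1.75) and -0.59 for the handling genes (SD 0.50). The later steps exceeded the handling genes by 1.25 on replicate 1 and by 0.12 on replicate 4, and the mevalonate steps exceeded them by 0.85 and 0.93. With runs of 400 spots centred, the later steps differed from the handling genes by 1.21 and -0.31, which turns their order on replicate 4, and the mevalonate steps by 0.46 and 0.68.

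On replicate 3 the later steps had 1.06 (5 genes), the handling genes 0.92 (2 genes) and the mevalonate steps -0.59 (2 genes). Replicate 2 had at most 2 genes of a group. The ranges of the 3 groups overlapped on replicates 1 and 4. The differences were not tested, since genes of a group are not replicates of a condition.

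**Figure D3:**
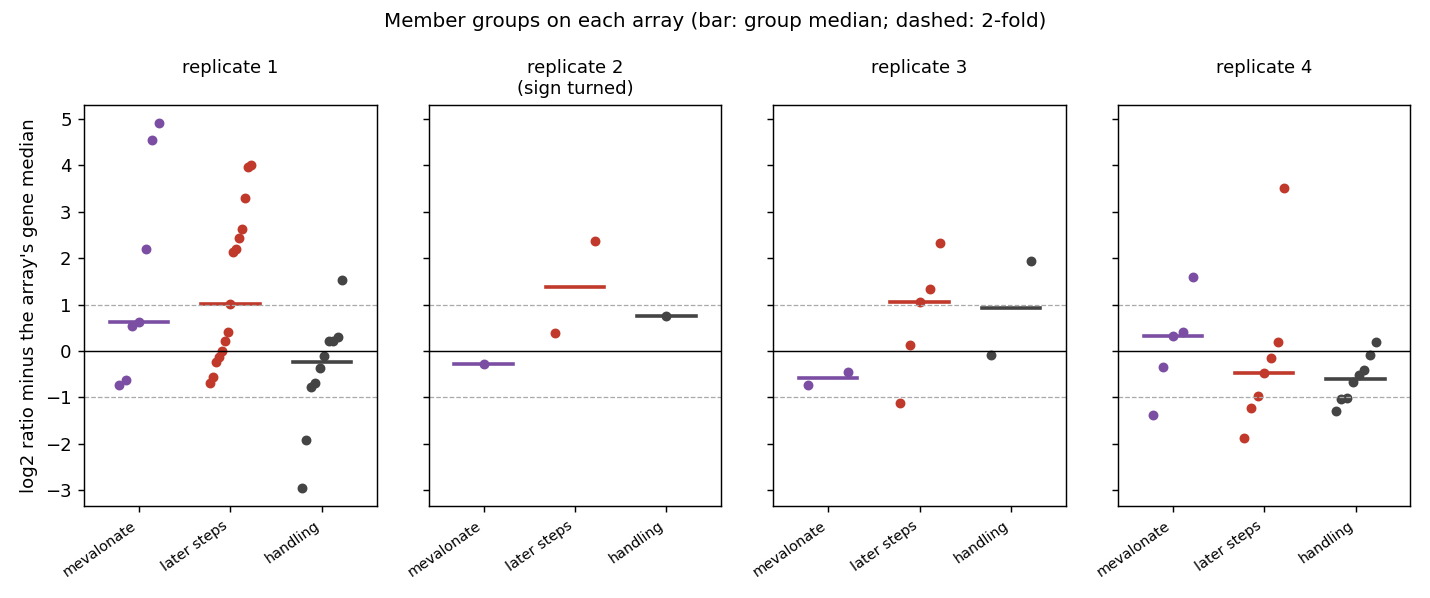
Points are the genes of each group on each array, as log2 ratios minus the array's gene median (y axis), with the group median as a bar and dashed lines at 2-fold. The later steps stand highest on replicate 1 (median 1.02) and below 0 on replicate 4 (-0.47), while the handling genes are below 0 on both (-0.23 and -0.59).

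Over all 37 genes the medians were 0.26 (32 genes), 0.58 (4 genes), 0.13 (9 genes) and -0.44 (20 genes) on replicates 1 to 4, where that of all genes is 0 by construction. The SD over sterol genes was 1.89 on replicate 1 and 1.19 on replicate 4, against 1.68 and 1.44 over all genes.

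Signs were mixed for most sterol genes, as they were for most of all genes with at least 2 values. Of the 23 sterol genes with at least 2 values, 3 lay above the median on every array that measured them (ERG10, ERG7 and ERG3). Another 3 lay below it on every one (HMG2, UPC2 and OSH2) and 17 had both signs. The spots of ERG7 on replicate 4 differed in sign. With runs of 400 spots centred the counts were again 3 and 3, but with other genes: UPC2 took the place of ERG7 among the higher genes, and SUT1 that of UPC2 among the lower ones. The same criteria were met by 21.1% and 21.9% of all 3288 genes with at least 2 values, so neither count is above the background. Without replicate 2, whose sign rests on the labels, the counts were 4 and 4 of 23, with MVD1 and OSH7 added, against 22.8% and 23.2% of genes. Minus the median of its run, OSH7 lay above 0 on replicate 4 (0.16).

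On replicates 1 and 4, which share the most sterol genes, 7 of 17 had the same sign, and the median difference between the arrays was 1.65. Over all 1912 genes measured on both, 52.5% had the same sign and the median difference was 1.35. Across these 17 genes, which share the 2 arrays and are not independent replicates, Pearson's r was -0.0015 and Spearman's rho 0.098. Over all 1912 genes both were also close to 0, with r at 0.084 and rho at 0.084.

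Limma's test on the second platform called no sterol gene. It covered 1212 genes with values on at least 2 of replicates 2, 3 and 4, and called 0 of them (0%), with 57 at an unadjusted p under 0.05 and a smallest adjusted p of 0.2497. It could be run for 8 of the 37 sterol genes, each with 2 values. ERG11 was the 1 sterol gene at an unadjusted p under 0.05 (0.0206), and the adjusted p-values from limma were 0.806 for ERG11 and 0.998 for HMG1, MVD1, ERG28, CYB5, ECM22, ARE1 and OSH7.

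Of these 8 genes, 2 lay above the median on both arrays (ERG11 and ECM22), 1 below (ARE1) and 5 had both signs, against 28.8% and 17.2% of all genes tested. The spots of ARE1 on replicate 3 differed in sign. Limma gave the same standard error of 1.27 to every gene with 2 values, because it shrank the spreads of all genes to a common one.

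Spots of one gene on one array show a part of the technical error within an array. On replicate 1, 11 sterol genes had values at 2 spots, whose probe numbers were not consecutive. The median difference between the spots was 1.40, against 0.81 for 693 genes. ERG4 had the largest, with -1.97 and 0.85, and its mean of -0.56 therefore has no settled sign. The spots of ERG25 (-1.10 and 0.84) also differed in sign, and those of ERG6 (4.21 and 2.39), ERG2 (1.29 and 3.09) and ERG3 (3.24 and 4.76) differed by over 1.5 but were all above the median.

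The spots of ERG26 (2.12 and 2.15) and ERG27 (4.18 and 3.76) lay close together. The -1.87 of ERG27 on replicate 4 came from 1 spot. On the second platform, sterol genes with values at 2 spots had them at consecutive probe numbers. A shift of a whole run moves both such spots and is not seen in their difference. The spots of CYB5 on replicate 3, at 2.02 and 2.65, lay in a run with a median of 2.21. The median difference was 0.24 on replicate 3 (7 genes) and 0.27 on replicate 4 (11 genes), against 0.48 and 0.41 over all genes. On replicate 2 it was 1.35 (3 genes, highest 2.49), against 0.53 over all genes. The median difference of 1.65 between replicates 1 and 4 was larger than the median spot difference of either array (1.40 and 0.27). The 0.27 comes from spots with consecutive probe numbers and leaves out shifts of whole runs.

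**Figure D4:**
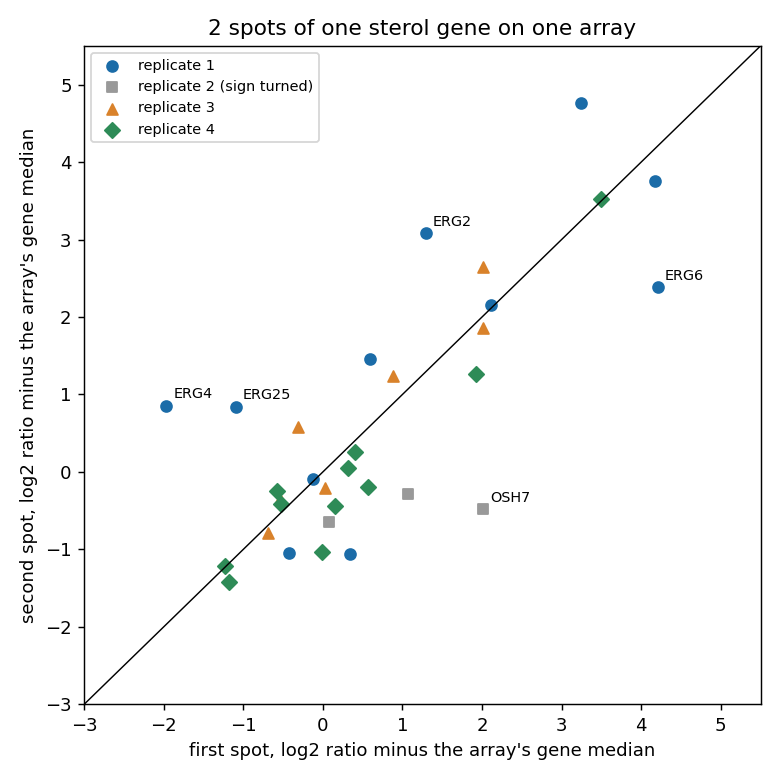
Each point is a sterol gene with values at 2 spots of 1 array, the first spot on the x axis and the second on the y axis, as log2 ratios minus the array's gene median; the line marks equality. On replicates 3 and 4 the 2 spots differ by about 1 or less. They differ by more for ERG4, ERG25, ERG2, ERG6, ERG3 and TGL1 on replicate 1 and for OSH7 and ERG28 on replicate 2.

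Related genes outside the 37 were also mixed. Of 28 other sterol genes (uptake, transport, cytochrome reductases and regulators), 27 were printed on the arrays, and their medians were 0.45 (22 genes), 1.84 (4 genes), -0.047 (8 genes) and -0.44 (15 genes) on replicates 1 to 4. On replicate 1, 7 of 22 lay 2-fold or more above the median and 1 below, against 26% and 21.1% of all genes. On replicate 4 the counts were 3 and 4 of 15, against 22.5% and 17.4%. HAP1, the gene of a haem-responsive transcription factor that acts on ERG genes, had 2.38, 2.16, -0.52 and 1.24 on replicates 1 to 4. Its mean of 1.31 ± 1.32 (SD, n = 4) was the largest of the list among genes on at least 3 arrays. The value of HAP1 on replicate 2 changes sign if that array is read as deposited, which lowers the mean. SWH1, another oxysterol-binding homologue, had -0.84, 0.11 and -0.44 on replicates 1, 3 and 4, the smallest mean among the same genes (-0.39 ± 0.48, SD, n = 3).

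Of 11 genes that draw on the mevalonate pathway for prenyl groups, dolichol, haem, ubiquinone and transfer RNA modification, medians were -0.0095 (8 genes) on replicate 1, 0.25 (4 genes) on replicate 3 and 1.24 (4 genes) on replicate 4. COX10, the haem farnesyltransferase gene, had -1.29, -0.14 and 1.78 on replicates 1, 2 and 4. COQ2, which attaches the ubiquinone side chain, had -1.46, 0.64 and 0.69 on replicates 1, 3 and 4. Both had their lowest value on replicate 1, where 4 of the 8 genes of this list lay above the median and 4 below it. In limma's test 0 of the 6 other sterol genes and 0 of the 3 isoprenoid branch genes that could be tested passed.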

How the data were processed

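The authors deposited log10 ratios of the 2 channels of each array in 2 tables. The base is not stated. With base 10 the values are fractions with denominators of at most 50 (tolerance 2e-08) for 4.68%, 15.6% and 13.3% of spots on replicates 2, 3 and 4, but only 0.345% on replicate 1, and with base 2 for at most 0.130%. The sources used here do not give scanner settings, dyes, background correction or why spots lack a value. Values were multiplied by 3.32 to give log2, spots of a gene were averaged, and each array was centred on its gene median. Symbols came from the platform annotation, checked by gene identifier against RefSeq (assembly R64), with 0 updates. No coordinates are given, as the files name no build. Replicates were numbered in accession order. Limma 3.58.1 (R 4.3.3) fitted an intercept to replicates 2, 3 and 4, with Benjamini-Hochberg adjustment at 0.05. It was also run on simulated data as a self-test, whose outcome is not given here and backs no result. The values of each gene with at least 3 arrays, and of the 2 highest and 2 lowest genes of each group on replicate 1, are given by rule. The other genes are named because they belong to the list. In the lists of related genes the rule took the largest and smallest mean among genes on at least 3 arrays. The genes and lists were chosen with earlier results of these data known. Alternatives were other centring, scaling and spot summaries, the sign of replicate 2, other sets of arrays and each replicate left out.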

Additional observations from a re-analysis of the deposited data

How the results depend on the processing

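Limma called 0 genes under each of the 13 settings tried, with 5 to 239 genes at an unadjusted p under 0.05. These counts are no evidence of robustness. In the main fit the standard error was 1.27 for a gene with 2 values, so only very large means could be called. When a value on all 3 arrays was required, or replicate 4 was left out, 0 sterol genes were tested. The counts of sterol genes with one sign on every array of the second platform (2 higher and 1 lower of 8) rest on few genes. They were 6 and 0 of 8 with no centring, 4 and 4 of 23 on replicates 1, 3 and 4, and 3 lower (of 23) on all 4 arrays or 3 lower (of 8) with replicate 2 as deposited. Leaving out 1 array gave 1 higher gene and 0 to 1 lower ones, and without replicate 4 no sterol gene had 2 values. Over all 4 arrays, a count added after the values were seen, leaving out 1 array gave 2 to 4 higher and 1 to 4 lower genes. With no centring the medians were 1.53, 1.16, -0.69 and 1.59 for all sterol genes on replicates 1 to 4. They were 1.89 and 2.37 for the mevalonate steps, 2.29 and 1.57 for the later steps and 1.04 and 1.44 for the handling genes on replicates 1 and 4. These include the array's own median of 1.27, -0.58 (as deposited), -0.83 and 2.03. With runs of 400 spots centred, the median of all sterol genes went from 0.58, 0.13 and -0.44 to 0.16, 0.25 and -0.24 on replicates 2, 3 and 4, that of the mevalonate steps on replicate 1 from 0.62 to 0.26 and that of the handling genes on replicate 4 from -0.59 to -0.27, above the -0.58 of the later steps there. The means of ERG28, CYB5, ARE1 and OSH7 over the second platform, none called, changed sign. ERG28 had 1.02 with no centring, 0.82 on replicates 1, 3 and 4 and 0.68 on all 4 arrays. CYB5 had -0.49 with runs of 400 spots centred. ARE1 had 0.23 with no centring and 0.012 with runs centred. OSH7 had -0.59 with replicate 2 as deposited, -1.17 on replicates 1, 3 and 4 and -0.52 on all 4 arrays. Beyond the change of array set or centring, the cause was not tested. Each of the 8 means has only 2 arrays, so leaving out 1 of them leaves no test. No paired analysis was possible because all arrays are of 1 group.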

Other observations

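Of the genes of fatty acid and phospholipid synthesis with at least 2 values, 6 of 18 lay above the median on every array that measured them and 1 below, against 21.1% and 21.9% of all genes. Over all 28 genes of the list, medians were 0.78 (22 genes), 1.01 (4 genes), -0.10 (9 genes) and 0.27 (17 genes) on replicates 1 to 4. On replicate 1, 9 of 22 lay 2-fold or more above the median and 2 below, against 26% and 21.1% of all genes. The counts were 2 and 1 of 9 on replicate 3 and 5 and 3 of 17 on replicate 4, against 28.9% and 21.9%, and 22.5% and 17.4%. Among the genes of this list on at least 3 arrays, FAS1, the gene of a fatty acid synthase subunit, had the largest mean (2.12 ± 2.05, SD, n = 3). Its values were 3.83, 2.67 and -0.15 on replicates 1, 3 and 4. CHO2, a phosphatidylethanolamine methyltransferase gene, had the smallest mean of them (-1.56 ± 3.60, SD, n = 3), with -1.80, -5.03 and 2.15 on the same arrays.

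Chosen after their values were seen, the fatty acid elongase genes ELO2 and ELO3 lay above the median on every array that measured them. ELO2 had 2.13, 2.43 and 1.18 and ELO3 2.90, 0.70 and 2.26 on replicates 1, 2 and 4. As with ERG11, their values on replicate 2 change sign if that array is read as deposited. Limma on the second platform called neither, and called 0 of the 8 genes of this list tested.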
